A study of Mus musculus with 24 samples.

Results

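The genes described here are 10 genes used as markers of white adipocytes, followed through the kidneys of mice after myocardial infarction (MI). They were taken by name from the count table, Adipoq, Cfd, Fabp4, Plin1, Cidec, Lep, Retn, Car3, Prkar2b and Cavin1, and make up 10 of its 56941 genes. All 10 were found, 9 of them passed the filter on low counts and were tested, and Lep did not. The choice of these genes used no measured value, but it was made with earlier results from the same kidneys known.

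White adipocytes store triglyceride in a single large lipid droplet and release hormones called adipokines into the blood. The droplet is coated by perilipin 1, which holds lipases away from the fat until a hormonal signal, carried by cyclic AMP and protein kinase A, releases them. In the kidney, fat lies around the renal pelvis and outside the capsule. In bulk tissue, fewer adipocytes and less RNA per adipocyte cannot be told apart.

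Kidney RNA was sequenced from male wildtype mice of the C57BL/6J strain, young adults at surgery, to ask how the kidney responds when the heart is injured. In the MI groups the left anterior descending coronary artery was tied off permanently and the kidneys were taken 5 days (5d post-MI) or 28 days (28d post-MI) later. Sham mice had the same operation without the ligature, and their kidneys were taken after 5 days only, so the 28d post-MI kidneys have no sham group of their own time and the same sham kidneys serve both comparisons. The labels list 8 sham, 9 5d post-MI and 7 28d post-MI kidneys, of which 8, 8 and 6 could be tied to a count column and were used. Each library gave between 2280618 and 3786275 counts. Levels are given in CPM, a gene's counts relative to all counts of that kidney, scaled by trimmed mean of M-values (TMM) factors. Nothing in the labels says which side, pole or amount of surrounding fat each kidney piece held, nor names a batch. Adrenal cortex genes stood out in 3 kidneys, sham replicates 2 and 6 and 5d post-MI replicate 5, and results without them are given with the marker lists. Kidney genes were present in every library: the summed level of Lrp2, Slc34a1, Umod, Slc12a3 and Aqp2 was between 6207 and 7489 CPM.

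Promoter sequences are shown for members that, in the kidneys, followed each other closely or did not. RefSeq (GRCm38.p6) has an entry for 8 of the 10 members, and none was read for Fabp4 and Car3. A search on both strands of the 250 bases before the start covered the TATA box as TATAAA, the short nuclear receptor element AGGTCA, the CCAAT box, the letters TTGCNNAA that C/EBP proteins can bind, and the GC box GGGCGG. The 100 bases before RefSeq's start are printed for Adipoq and Plin1, whose levels followed each other closely, and for Lep and Cavin1, whose levels followed them less, with the matches in capitals. The gene positions given below come from GENCODE, which places some starts elsewhere. By those positions the bases printed for Plin1 and Cavin1 lie within the gene.
Adipoq (chr16:23146436-23146535, plus strand): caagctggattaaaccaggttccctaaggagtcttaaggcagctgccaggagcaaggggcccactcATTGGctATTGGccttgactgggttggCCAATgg
Plin1 (chr7:79732777-79732876, minus strand): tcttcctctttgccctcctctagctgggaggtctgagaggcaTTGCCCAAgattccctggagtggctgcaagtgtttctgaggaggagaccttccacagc
Lep (chr6:29060121-29060220, plus strand): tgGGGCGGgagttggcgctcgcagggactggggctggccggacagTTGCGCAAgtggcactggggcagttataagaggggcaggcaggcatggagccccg
Cavin1 (chr11:100970618-100970717, minus strand): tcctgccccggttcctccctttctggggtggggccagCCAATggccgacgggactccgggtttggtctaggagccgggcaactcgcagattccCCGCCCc
CCAAT was found in the promoters of Adipoq and Cavin1, 2 of 8, and in 33.8% of 32851 mouse promoters of that length. TTGCNNAA was found in those of Lep and Plin1, against 9.56% of all promoters, and Plin1 held a further match starting at -187, before the bases printed. GGGCGG was found in those of Lep, Cavin1 and Prkar2b, against 32.7%. Neither TATAAA, in 12.4% of all promoters, nor AGGTCA, in 14% of them, was found in any of the 8. These matches are descriptions of letters and were not tied to binding.

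Among the adipokines, Adipoq encodes adiponectin, a hormone made almost only by adipocytes, and lies at chr16:23146536-23158028 on the plus strand (GRCm38). In sham kidneys its level was lowest at 18 CPM, had a median of 48.8 CPM and reached 95.5 CPM. At 5d post-MI it ran from 6.06 through a median of 41 to 62.6 CPM, and at 28d post-MI from 11.5 through 21.2 to 54.5 CPM. The groups overlapped, with sham replicate 5 the highest of the 22 kidneys and 5d post-MI replicate 6 the lowest, and below every sham kidney lay 3 of the 5d and 1 of the 28d kidneys. Group means were 49.6 ± 23.1 CPM (SD, n = 8) in sham, 35.4 ± 21.1 CPM (SD, n = 8) at 5d and 25.9 ± 15 CPM (SD, n = 6) at 28d.

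Cfd encodes adipsin, or complement factor D, the serine protease that adipocytes secrete to start the alternative complement pathway (chr10:79890853-79892655, plus strand). Sham kidneys held 82.9 CPM at the lowest, 276 CPM at the median and 641 CPM at the highest, a 7.73-fold range. The 5d post-MI kidneys ran from 56.3 through 304 to 425 CPM, and those at 28d post-MI from 99.9 through 131 to 298 CPM. Means were 307 ± 174 CPM (SD, n = 8), 254 ± 133 CPM (SD, n = 8) and 154 ± 75.8 CPM (SD, n = 6). The medians of sham and 5d post-MI kidneys were close, while 5 of the 6 kidneys at 28d post-MI lay at or below 159 CPM and replicate 7 alone was at 298 CPM.

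Retn encodes resistin, an adipocyte hormone in the mouse that acts against insulin (chr8:3655770-3660110, plus strand). It ran from 15.6 through 41.9 to 75.9 CPM in sham kidneys, from 5.2 through 23.6 to 38.5 CPM at 5d post-MI and from 15.1 through 19 to 38.6 CPM at 28d post-MI. Every 5d post-MI and every 28d post-MI kidney lay below the sham mean of 40.8 ± 19.8 CPM (SD, n = 8). Sham replicates 4, 7 and 8 nevertheless lay within the range of the MI groups, whose means of 22.2 ± 12.1 CPM (SD, n = 8) and 22 ± 8.81 CPM (SD, n = 6) were nearly equal.

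Lep encodes leptin, which reports fat stores to the brain (chr6:29060220-29073877, plus strand), and was barely counted. Single kidneys held between 0 and 16 counts of it, sham replicate 4 and 5d post-MI replicate 3 held none, and a gene at 0 may have had up to 3 counts there, counting error only. Its mean was 2.4 ± 1.69 CPM (SD, n = 8) in sham, 1.17 ± 1.59 CPM (SD, n = 8) at 5d and 2.17 ± 1.73 CPM (SD, n = 6) at 28d, with medians of 2.08, 0.51 and 1.64 CPM. At 5d post-MI, 7 of the 8 kidneys lay at or below 1.5 CPM and replicate 9 was at 4.89 CPM, level with the highest sham kidney at 4.93 CPM. At this depth no difference in Lep was detectable: without the filter, edgeR gave a log2 fold change of -0.88 (SE 0.56, adjusted p = 0.685) at 5d post-MI and -0.04 (SE 0.56, adjusted p = 1) at 28d post-MI against sham.

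Of the lipid droplet and fatty acid genes, Plin1 encodes perilipin 1 (chr7:79720218-79732903, minus strand). It ran from 11.1 through a median of 35.5 to 60.3 CPM in sham kidneys, from 1.73 through 23.2 to 37.6 CPM at 5d post-MI and from 8.6 through 12.4 to 21.3 CPM at 28d post-MI. The 5d post-MI kidneys spanned a 21.7-fold range, the widest of any tested member in any group, and comprised 3 kidneys at or below 8.23 CPM and 5 at or above 22.9 CPM. At its lowest, 5d post-MI replicate 6, the gene had 4 counts. Means were 37.2 ± 16.5 CPM (SD, n = 8) in sham, 20.8 ± 13.5 CPM (SD, n = 8) at 5d and 13 ± 4.76 CPM (SD, n = 6) at 28d, where all 6 kidneys lay below the sham mean and 2 below every sham kidney.

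Cidec encodes the droplet protein that fuses small lipid droplets into the single large one (chr6:113424634-113435760, minus strand). Levels ran from 18.3 through 43.6 to 61.2 CPM in sham, from 8.66 through 37.1 to 62.9 CPM at 5d post-MI and from 14.7 through 25.6 to 42 CPM at 28d post-MI. Means were 42.8 ± 14.3 CPM (SD, n = 8), 34.6 ± 20.6 CPM (SD, n = 8) and 26 ± 10.4 CPM (SD, n = 6). Cidec was the only tested member for which the highest 5d post-MI kidney, replicate 7, also exceeded every sham kidney. The 5d post-MI kidneys again held 3 low values, at or below 14.7 CPM, and 5 at or above 35.6 CPM.

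Fabp4 encodes the fatty acid binding protein of adipocytes, which capillary endothelium and macrophages also make (chr3:10204088-10208576, minus strand). It was counted in depth, from 268 to 3857 counts a kidney. Sham kidneys ran from 237 through 702 to 1134 CPM, 5d post-MI kidneys from 116 through 593 to 822 CPM, and 28d post-MI kidneys from 220 through 327 to 528 CPM. No 28d post-MI kidney reached the sham mean of 723 ± 298 CPM (SD, n = 8), and their mean was 341 ± 120 CPM (SD, n = 6), beside 488 ± 274 CPM (SD, n = 8) at 5d post-MI. Sham replicate 8, at 237 CPM, lay among the lowest 28d post-MI kidneys.

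The remaining members serve metabolism, signalling and membrane structure. Car3 encodes carbonic anhydrase 3, abundant in the cytosol of adipocytes, liver and slow muscle (chr3:14863512-14872523, plus strand). Its level ran from 110 through 252 to 410 CPM in sham, from 31.6 through 193 to 339 CPM at 5d post-MI and from 85.8 through 128 to 256 CPM at 28d post-MI. At 28d post-MI, 5 of the 6 kidneys lay between 85.8 and 150 CPM and replicate 7 was at 256 CPM, above the sham mean of 245 ± 102 CPM (SD, n = 8). The means of the MI groups were 185 ± 114 CPM (SD, n = 8) and 145 ± 58.6 CPM (SD, n = 6).

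Prkar2b encodes the RII-beta regulatory subunit of protein kinase A, the main regulatory subunit of that kinase in fat (chr12:31958476-32061296, minus strand). It ran from 9.15 through 26 to 39.1 CPM in sham, from 3.9 through 22.2 to 32.1 CPM at 5d post-MI and from 3.37 through 10.8 to 13.5 CPM at 28d post-MI. All 6 kidneys at 28d post-MI lay below 7 of the 8 sham kidneys, the eighth being replicate 8 at 9.15 CPM, and their mean was 9.9 ± 3.66 CPM (SD, n = 6) against 25.6 ± 9.66 CPM (SD, n = 8) in sham. The 28d post-MI values rest on few counts, from 9 to 43 a kidney.

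Cavin1 encodes a coat protein of caveolae, the small membrane pits that are dense in adipocytes and also in endothelium and smooth muscle (chr11:100956733-100970887, minus strand). Its levels lay closer together than those of any other member, from 70.4 through 90.4 to 104 CPM in sham, from 51.5 through 71.2 to 89.4 CPM at 5d post-MI and from 56.1 through 70.2 to 75.5 CPM at 28d post-MI. Means were 87.5 ± 12 CPM (SD, n = 8), 69.3 ± 12.6 CPM (SD, n = 8) and 68.7 ± 7.03 CPM (SD, n = 6). Below every sham kidney lay 4 of the 8 kidneys taken at 5d and 3 of the 6 taken at 28d, and none lay above the highest.

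**Figure D1:**
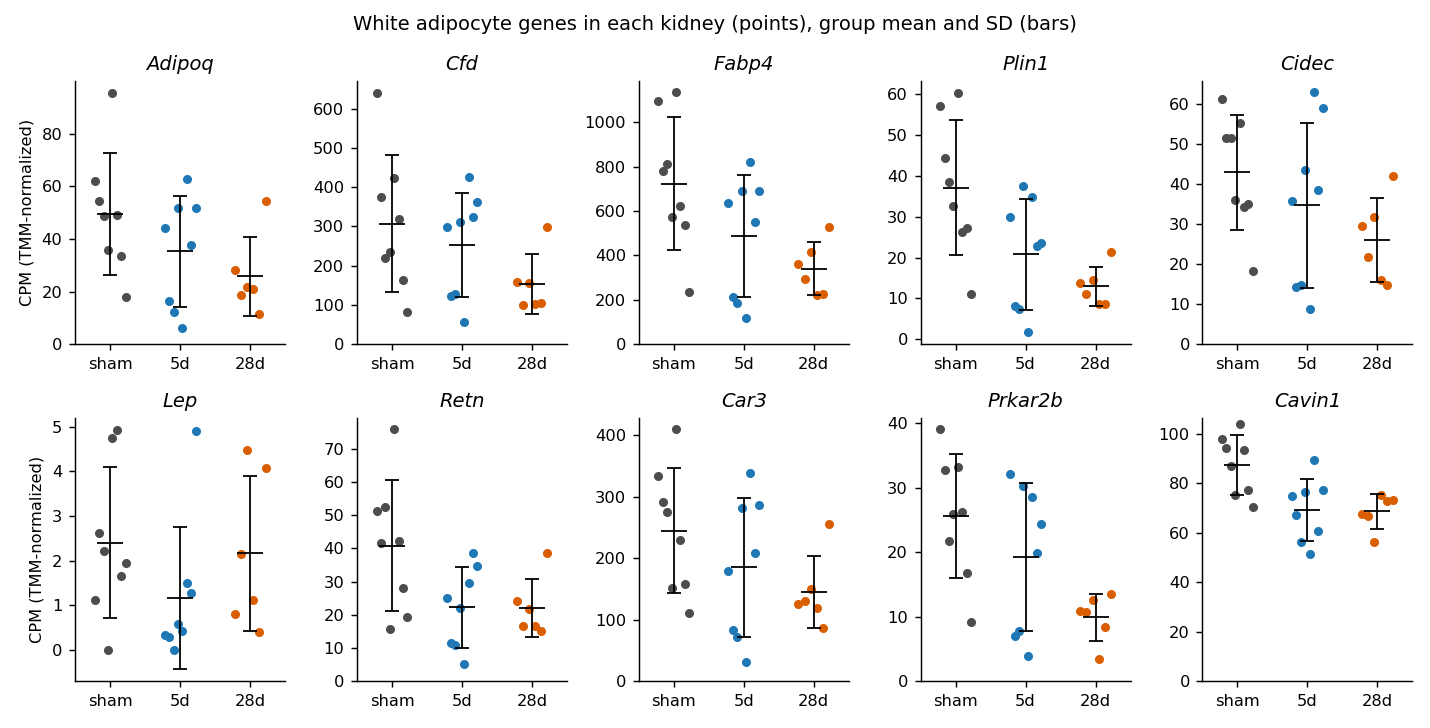
Level of each of the 10 genes (CPM, TMM-normalized, linear axes of different length) in each kidney (points) by group, with the group mean and SD (bars); 8 sham, 8 5d post-MI and 6 28d post-MI kidneys. The groups overlap for every gene, 3 of the 5d post-MI kidneys lie far below the other 5 for most genes, and Cavin1 shows the smallest spread relative to its level.

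The spread between kidneys of one group was the main feature of these genes. In sham kidneys the coefficient of variation (CV) was between 33.3% for Cidec and 56.8% for Cfd among the 8 tested genes other than Cavin1, for which it was 13.7%. Counting error alone gave a CV of 2.33% for Fabp4 and 12.3% for Prkar2b in the same kidneys, the extremes of these 8 genes. At 5d post-MI the CV of the 8 genes was between 52.3% for Cfd and 65.1% for Plin1, and at 28d post-MI between 35.2% for Fabp4 and 58% for Adipoq. For Lep the CV was 70.4%, 136% and 79.9% in sham, 5d and 28d post-MI kidneys, and counting error alone gave 60.1% in the last of these groups.

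**Figure D2:**
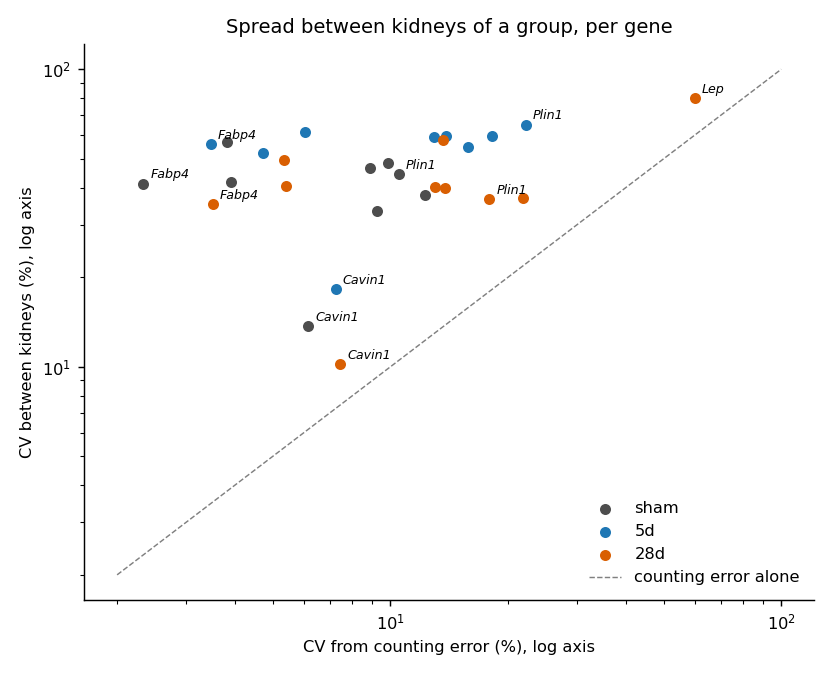
CV between kidneys of a group (percent, log axis) against the CV that counting error alone would give (percent, log axis), 1 point per gene and group; the dashed line marks equality, Lep is drawn for 28d post-MI only because a kidney at 0 counts leaves its counting CV undefined in the other groups. The tested genes other than Cavin1 lie between 33.3% and 65.1%, all above the line. Nearest to it among these is Prkar2b at 28d post-MI, with 36.9% against a counting CV of 21.8%. Cavin1 lies between 10.2% and 18.2%, with counting CVs of 6.16% to 7.44%.

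On the log2 scale (prior count of 2), the SD within groups, pooled over the 3 groups, was between 0.77 for Cidec and 0.99 for Plin1 for the 8 tested genes other than Cavin1. Over all 12780 tested genes its median was 0.22, and 95% of them lay at or below 0.50. Between 99.2% and 99.8% of tested genes had a smaller SD than each of those 8. Cavin1, with an SD of 0.22, was in the middle of all genes, since 47.9% had a smaller one. For each of the 8 genes the SD was larger in the 5d post-MI group than in the sham and the 28d post-MI groups, for example 1.39 against 0.76 and 0.47 for Plin1, a difference in spread that was not tested.

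The same kidneys were high or low for nearly every gene. The summed level of the 10 genes ran from 578 CPM in sham replicate 8 to 2437 CPM in sham replicate 1, from 282 CPM in 5d post-MI replicate 6 to 1896 CPM in replicate 7, and from 548 CPM in 28d post-MI replicate 6 to 1330 CPM in replicate 7. Group medians of that sum were 1527, 1329 and 746 CPM. Fabp4, Cfd and Car3 held 80.8%, 80.3% and 78.6% of that sum in sham, 5d and 28d post-MI kidneys, so the sum follows these 3 genes most closely. The kidney 5d post-MI replicate 6 was the lowest of its group for 9 of the 10 genes, and sham replicate 8 for 8. At the other end, 28d post-MI replicate 7 was the highest of its group for 8 genes, and 5d post-MI replicate 7 and sham replicate 5 for 6 each. Replicates 2, 3 and 6 at 5d post-MI, at 545, 493 and 282 CPM in sum, stood apart from the other 5, which held 1302 to 1896 CPM.

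**Figure D3:**
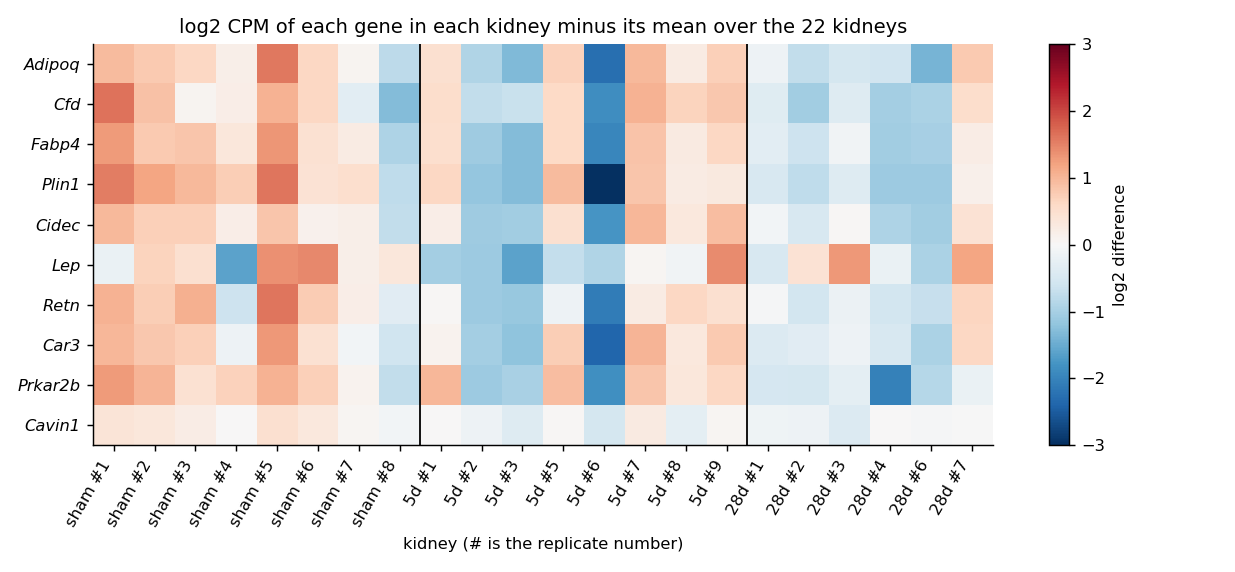
Difference of each gene's log2 CPM in a kidney from that gene's mean over the 22 kidneys (colour scale in log2 units, from -3 to 3), genes in rows and kidneys in columns, black lines between sham, 5d and 28d post-MI kidneys. Columns are mostly of one colour from top to bottom, with 5d post-MI replicates 2, 3 and 6 and sham replicate 8 low and sham replicates 1 and 5 high; Lep departs from the other rows and Cavin1 is pale throughout.

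How tightly the genes moved together was measured across the 22 kidneys after each group's mean had been subtracted, so that differences between groups play no part. The points of each relation share the library and its scaling. Over 15 relations with Adipoq, p-values come from permutation tests with 100000 resamples within groups, two-sided, of which 1e-05 is the smallest p they can give, and were adjusted by Benjamini-Hochberg over the 15. The closest partner was Car3, with Pearson's r = 0.97 and Spearman's rho = 0.95 (adjusted p = 2.14e-05 and 1.87e-05, raw p = 1e-05 for both, permutation). Without 5d post-MI replicate 6 and 28d post-MI replicate 6, the kidneys farthest from the median of Adipoq, r was 0.96. The slope of Car3 on Adipoq was 0.93 on the log2 scale, and the SD of their log2 ratio within groups was 0.22, against 0.87 for Car3 itself.

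Fabp4 (r = 0.96, rho = 0.94), Plin1 (r = 0.94, rho = 0.92), Cidec (r = 0.94, rho = 0.92), Cfd (r = 0.93, rho = 0.94) and Retn (r = 0.90, rho = 0.91) followed, each with a permutation adjusted p of 2.14e-05 for r and 1.87e-05 for rho (raw p = 1e-05). Prkar2b had r = 0.86 (permutation p = 4e-05, adjusted p = 7.5e-05) and rho = 0.89 (permutation p = 1e-05, adjusted p = 1.87e-05). Without the same kidneys r was 0.95 for Fabp4, 0.93 for Plin1, 0.91 for Cidec and for Cfd, 0.87 for Retn and 0.83 for Prkar2b. Within single groups, r with Adipoq was between 0.82 and 0.99 for these genes, other than Prkar2b at 28d post-MI, where it was 0.37 over 6 kidneys. Among the 28 pairs that the 8 genes other than Lep and Cavin1 form, r ran from 0.77 through a median of 0.92 to 0.98.

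Cavin1 followed Adipoq with r = 0.78 (permutation p = 0.0002, adjusted p = 0.000333) and rho = 0.79 (permutation p = 5e-05, adjusted p = 8.33e-05), and r was 0.79 without those kidneys. Its slope, however, was 0.18, so that a given log2 difference in Adipoq went with a much smaller one in Cavin1. Within groups r was 0.94 in sham, 0.89 at 5d and 0.09 at 28d. Over the 6 kidneys at 28d the CV of Cavin1 was 10.2%, and counting error alone gave 7.44%. Lep, with its few counts, had r = 0.51 (permutation p = 0.0191, adjusted p = 0.026) and rho = 0.51 (permutation p = 0.0196, adjusted p = 0.0268). Without the same kidneys, over the remaining 20, r for Lep was 0.50 and its adjusted p, by permutation, 0.0523. The relation thus missed the threshold while r was nearly the same. It also missed the threshold when any one of sham replicate 5, 5d post-MI replicate 3, 28d post-MI replicate 6 and 28d post-MI replicate 7 was left out, with r from 0.46 to 0.47.

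**Figure D4:**
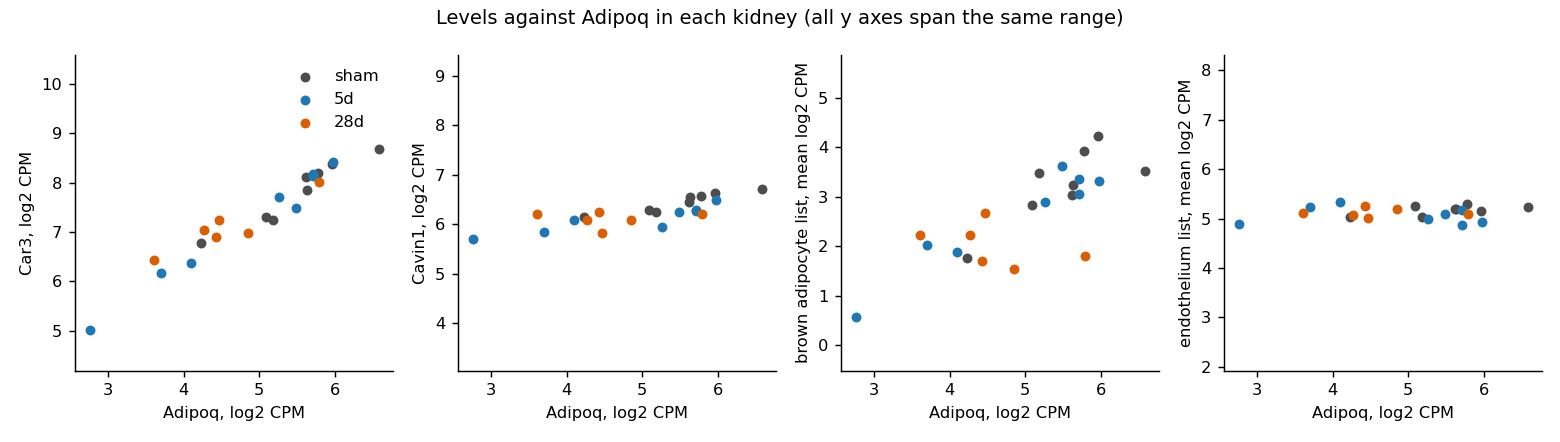
Level of Car3, of Cavin1 and of the mean of the brown adipocyte and the endothelium lists (log2 CPM) against Adipoq (log2 CPM), 1 point per kidney, coloured by group, with y axes of equal span. Car3 follows Adipoq nearly in proportion (slope 0.93), Cavin1 with a slope of 0.18, the brown adipocyte list with more scatter (r = 0.75) and the endothelium list not visibly (r = 0.01). Within groups the endothelium list had r = 0.58 in sham, -0.19 at 5d and 0.01 at 28d.

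Against sham, no member was called by edgeR's quasi-likelihood test at a Benjamini-Hochberg adjusted p under 0.05 at 5d post-MI, where 0.0704% of the 12780 tested genes were called, nor at 28d post-MI, where 0.0235% were. Between 28d and 5d post-MI none was called either, against 0.415% of all genes. At an unadjusted p under 0.05, 2 of the 9 tested members were lower at 5d post-MI than in sham (3.97% of all genes), 6 were lower at 28d post-MI than in sham (4.23%) and 1 was lower at 28d than at 5d post-MI (4.01%), and none was higher in any comparison (3.92%, 4.45% and 5.03% of all genes). By DESeq2, which called 0.232%, 0.198% and 0.565% of the genes it tested, and by limma's voom, again no member passed the adjusted threshold, and the unadjusted counts were 2 and 3 at 5d, 7 and 4 at 28d, 1 and 0 between the times. No member had groups that did not overlap in any comparison, which 0.0548%, 0.258% and 0.344% of all genes had.

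The signs were nevertheless one-sided. The log2 fold change was below 0 for 9 of 9 tested members at 5d post-MI, for 9 of 9 at 28d post-MI and for 8 of 9 between the times, against 49.9%, 50.4% and 51.4% of all tested genes. Its median over the members was -0.39, -0.89 and -0.45, beside 0.000176, -0.00121 and -0.00459 over all tested genes. Since the members vary together from kidney to kidney, 9 genes do not count as 9 separate observations, and both comparisons with MI kidneys share the sham kidneys. The SE of a member's log2 fold change had a median of 0.38, 0.43 and 0.43, beside 0.11, 0.12 and 0.13 over all tested genes, so that a difference of the same size had a far wider error here than for a typical gene.

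At 28d post-MI the difference from sham was largest for the droplet coat gene Plin1, with a log2 fold change of -1.48 (SE 0.46, edgeR adjusted p = 0.335), and all 6 kidneys lay below the sham mean. Prkar2b followed with -1.35 (SE 0.44, adjusted p = 0.361, edgeR) and Fabp4 with -1.08 (SE 0.42, adjusted p = 0.462, edgeR), each with 6 of 6 kidneys below the sham mean. The adipokines had log2 fold changes of -0.99 (SE 0.46) for Cfd, -0.89 (SE 0.45) for Adipoq and -0.84 (SE 0.39) for Retn, with adjusted p of 0.555, 0.601 and 0.563 by edgeR. Car3 had -0.75 (SE 0.43), Cidec -0.69 (SE 0.39) and Cavin1 -0.34 (SE 0.11). Leaving out one kidney at a time, the values ran from -1.70 to -1.35 for Plin1, from -1.49 to -1.17 for Prkar2b and from -1.28 to -0.68 for Adipoq, the last without 28d post-MI replicate 7 and without sham replicate 5 at its ends. No such fit called a member, and the count of 6 members at an unadjusted p under 0.05 ran from 4 to 9, the latter without 28d post-MI replicate 7. It was also 9 when only the 2 groups compared were fitted, with no member called.

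At 5d post-MI the log2 fold changes from sham were -0.84 for Retn (SE 0.36, unadjusted p = 0.0279, adjusted p = 0.57, edgeR), with 8 of 8 kidneys below the sham mean, and -0.79 for Plin1 (SE 0.38, adjusted p = 0.634, edgeR), with 7 of 8. Fabp4 had -0.56 (SE 0.38), Adipoq -0.44 (SE 0.39), Car3 -0.39 (SE 0.39), Prkar2b -0.37 (SE 0.35), Cavin1 -0.32 (SE 0.10), Cfd -0.27 (SE 0.40) and Cidec -0.27 (SE 0.34). For Cfd the value was -0.02 without sham replicate 1, and for Adipoq it was -0.23 without sham replicate 5. The count of 2 members at an unadjusted p under 0.05 was 1 without sham replicate 1, without sham replicate 5, and without 5d post-MI replicate 2 or 3, and 3 without sham replicate 6, 7 or 8 or without 5d post-MI replicate 1, 5 or 7.

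Cavin1 had the log2 fold change nearest to 0 at 28d post-MI and the smallest unadjusted p of the members in both comparisons with sham, with an SE near the median of all genes. By edgeR its unadjusted p was 0.00273 at 5d post-MI (adjusted p = 0.347, 7 of 8 kidneys below the sham mean) and 0.00355 at 28d post-MI (adjusted p = 0.32, 6 of 6 below). Without the filter on low counts, in which 30116 genes were fitted, Cavin1 passed the threshold in both, with edgeR adjusted p of 0.00535 and 0.00516, where 0.266% and 0.312% of all genes were called. Its log2 fold changes in that fit, -0.31 and -0.34, were nearly unchanged, while its unadjusted p by edgeR was 4.09e-06 and 4.44e-06. The reason for the smaller unadjusted p was not tested. Its adjusted p over all fits tried ran from 0.00535 to 0.554 at 5d post-MI and from 0.00516 to 0.616 at 28d post-MI.

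Between 28d and 5d post-MI, which also tests whether a gene's difference from sham was the same at both times, Prkar2b had a log2 fold change of -0.98 (SE 0.45, unadjusted p = 0.0438, adjusted p = 0.535, edgeR). That unadjusted count of 1 member was 0 without 5d post-MI replicate 1, 5, 7, 8 or 9 or without 28d post-MI replicate 1, 2, 4 or 6, and 2 without 28d post-MI replicate 7. Cfd had -0.72 (SE 0.45), Plin1 -0.69 (SE 0.49), Fabp4 -0.52 (SE 0.41), Adipoq -0.45 (SE 0.46), Cidec -0.43 (SE 0.40) and Car3 -0.36 (SE 0.43). Retn, at 0.00 (SE 0.42), and Cavin1, at -0.02 (SE 0.11), had nearly equal levels at both times, and the sign of each turned under other settings.

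**Figure D5:**
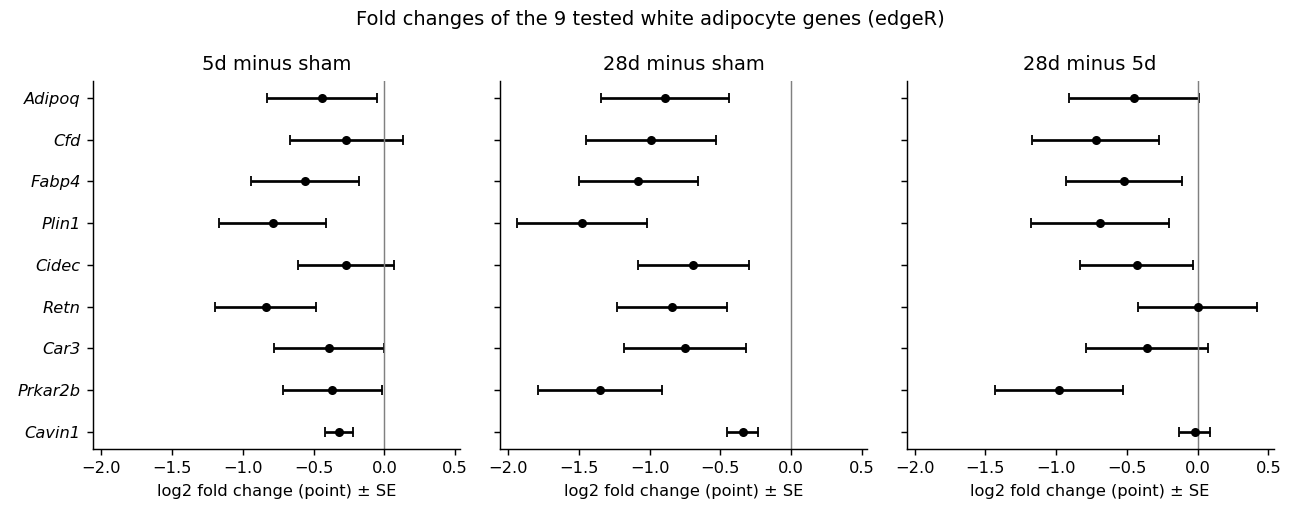
Log2 fold change (points) with its SE (bars) of the 9 tested genes by edgeR in the 3 comparisons, 5d post-MI minus sham, 28d post-MI minus sham and 28d minus 5d post-MI, with the grey line at 0. Against sham all 9 points lie left of 0 at both times, with wide bars for every gene but Cavin1.

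A list of 29 other genes of white adipocytes, chosen by name, was read beside the members. All 29 were found and 27 tested. None was called by edgeR in any comparison. At an unadjusted p under 0.05, 15 were lower at 5d post-MI than in sham (3.97% of all genes) and 17 at 28d post-MI (4.23%). None was higher (3.92% and 4.45% of all genes). DESeq2, which called 0.198% of genes there, called Agpat2 (-0.88, adjusted p = 0.0182) and Pnpla2 (-0.55, adjusted p = 0.0313) at 28d post-MI against sham. Without sham replicate 8 edgeR called both as well (-0.99, adjusted p = 0.0401, and -0.63, adjusted p = 0.0386). That kidney had the lowest sum of this list among the sham kidneys, 3102 CPM, so leaving it out raises the sham mean of the sum. The share of all genes called in that fit is not given here. Without the filter on low counts edgeR called Slc2a4 (-0.44, adjusted p = 0.00795). Of the 27 tested genes, 24 at 5d and 23 at 28d post-MI had a log2 fold change below 0 against sham, and 22 between the times. Of all tested genes, 49.9%, 50.4% and 51.4% had one below 0. The median log2 fold change of the list was -0.44 and -0.64 against sham, and -0.11 between the times. Its genes with the most counts, not divided by length, were Lpl, the lipase that frees fatty acids from lipoproteins, Scd1, a desaturase of fat synthesis, Gpd1, which makes glycerol phosphate, and the fatty acid receptor Cd36. Scd1 held 1294 ± 637 CPM (SD, n = 8) in sham, 609 ± 362 CPM (SD, n = 8) at 5d and 559 ± 186 CPM (SD, n = 6) at 28d, with log2 fold changes of -1.08 (SE 0.42, adjusted p = 0.53, edgeR) and -1.21 (SE 0.46, adjusted p = 0.454, edgeR) from sham. Gpd1 had -0.26 (SE 0.12) and -0.36 (SE 0.13). Lpl, with 0.28 (SE 0.17) and 0.25 (SE 0.18), and Cd36, with -0.21 (SE 0.13) and 0.03 (SE 0.14), both of which other kidney cells express, did not share that sign at 28d post-MI. Nor did Abhd5, at 0.09 (SE 0.11), and G0s2, at 0.10 (SE 0.16), at 28d post-MI against sham. The mean of the list followed Adipoq with r = 0.94 and rho = 0.94 (permutation adjusted p = 2.14e-05 and 1.87e-05), and with r = 0.93 without the kidneys farthest from the median. The list's mean therefore does not count as an observation separate from the members, nor do those of its genes that vary with them.

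Of all tested genes that are no member, 4 of the 5 whose pattern over the 22 kidneys was most like the mean of the 10 members, by Spearman's rho after subtracting group means, were Aoc3 (0.93), Plin4 (0.93), Scd1 (0.92) and Lgals12 (0.91). Aoc3, an amine oxidase of the adipocyte surface, Plin4, a perilipin, Scd1 and Lgals12, a galectin of lipid droplets, were in the list of other white adipocyte genes. Of the 50 genes most like the members, 13 were among the 27 tested genes of that list, and 1, Cox8b, was in the brown adipocyte list. Other tested genes of the white adipocyte list followed the members less, among them Cd36 (0.45), Abhd5 (0.19), Aqp7 (0.07) and G0s2 (-0.01).

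The brown adipocyte list holds genes of heat-producing fat, led by the uncoupling protein gene Ucp1. Of its 9 genes 6 were tested and none was called by edgeR. DESeq2 called a pair of them at 28d post-MI against sham, Otop1 with a log2 fold change of -2.29 (adjusted p = 0.0303) and Kcnk3 with -2.94 (adjusted p = 0.00821). Without sham replicate 8, edgeR called Otop1 (-2.42, adjusted p = 0.0386) and Cox7a1 (-0.39, adjusted p = 0.0401). That kidney had the lowest sum of this list too among the sham kidneys, 78.2 CPM, and the share of all genes called without it is not given here. Without the filter on low counts edgeR called the same genes, Otop1 (-2.25, adjusted p = 1.78e-05) and Cox7a1 (-0.33, adjusted p = 0.016). All 6 had an unadjusted p under 0.05 with a lower level at 28d post-MI than in sham (4.23% of all genes), and 2 at 5d post-MI (3.97%). The median log2 fold change was -0.66 at 5d post-MI, -2.09 at 28d post-MI and -1.41 between the times. Ucp1 itself ran from 1.94 to 153 CPM in sham, from 0.433 to 119 CPM at 5d post-MI and from 0.402 to 22.4 CPM at 28d post-MI, and its log2 fold change at 28d post-MI was -2.56 (SE 0.95, adjusted p = 0.444, edgeR). Cox7a1, a respiratory chain gene, had -0.33 (SE 0.10, adjusted p = 0.259, edgeR), Cidea -1.93 (SE 0.64) and Cox8b -1.86 (SE 0.60). The mean of this list followed Adipoq with r = 0.75 (permutation p = 0.0006, adjusted p = 0.0009) and rho = 0.68 (permutation p = 0.00204, adjusted p = 0.00306), and r was 0.68 without the kidneys farthest from the median. Within groups r was 0.79 in sham, 0.96 at 5d and -0.44 at 28d, so the relation did not hold within the last group.

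Genes of the members' own pathways were read as well. All 4 receptor genes of adipokines were tested and none was called. Adipor1, a receptor of adiponectin, held 124 ± 7.68 CPM (SD, n = 8) in sham, 125 ± 7.78 CPM (SD, n = 8) at 5d and 116 ± 5.41 CPM (SD, n = 6) at 28d. Adipor2, the other adiponectin receptor, had a log2 fold change of -0.22 (SE 0.08, unadjusted p = 0.00591, adjusted p = 0.431, edgeR) at 5d and -0.12 (SE 0.08) at 28d. Cdh13, which binds adiponectin on vessels, and Lepr, the leptin receptor, had log2 fold changes between -0.22 and 0.34 against sham.

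Among the 7 other caveola genes, all tested, none was called, and the medians of the log2 fold change were 0.02 and -0.08 against sham. Cav1, the main scaffold of caveolae, had -0.36 (SE 0.14) at 5d and -0.26 (SE 0.15) at 28d post-MI, Ehd2, which steadies the neck of a caveola, -0.34 (SE 0.12) and -0.29 (SE 0.13), Pacsin2, which bends membrane, 0.13 (SE 0.07) and -0.03 (SE 0.08), and Cav2, a partner of Cav1, 0.09 (SE 0.08) and -0.05 (SE 0.09). Of the 5 other subunit genes of protein kinase A, 4 were tested and none was called or had an unadjusted p under 0.05. Prkar1a and Prkar2a, regulatory subunits made in most cells, had log2 fold changes of 0.03 (SE 0.05) and 0.05 (SE 0.06) at 5d post-MI and of 0.00 (SE 0.05) and 0.03 (SE 0.07) at 28d post-MI, beside -1.35 for Prkar2b. Of the 14 other carbonic anhydrase genes 8 were tested and none was called. Car2, the main cytosolic form in the kidney, held 311 ± 23 CPM (SD, n = 8) in sham and 270 ± 23.9 CPM (SD, n = 6) at 28d (log2 fold change -0.20, SE 0.06, adjusted p = 0.227, edgeR), and Car4 and Car12 had log2 fold changes between -0.03 and 0.15 against sham.

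Markers of other tissues were read beside these results. The summed level of 7 adrenal cortex genes was 976 CPM in sham replicate 2, 727 CPM in sham replicate 6 and 85.2 CPM in 5d post-MI replicate 5, and between 1.07 and 4.27 CPM in the other 19 kidneys. Star, the carrier of cholesterol for steroid synthesis, reached 303 CPM in sham and at most 2.44 CPM at 28d. Cyp11b1 was at 0 in 18 kidneys and Cyp11b2 in all 22. Over the 9 tested members, with rank 22 the highest level of the 22 kidneys, the mean rank was 18.9 for sham replicate 2. It was 15.1 for sham replicate 6 and 15.6 for 5d post-MI replicate 5. Sham replicate 6 was second lowest of the sham kidneys for Plin1 (26.2 CPM) and Cidec (34.1 CPM) and the highest for Lep (4.93 CPM). Without those 3 kidneys, a choice made after seeing the data, no member was called, the median log2 fold change of the members was -0.47, -0.87 and -0.38 and 4 members had an unadjusted p under 0.05 at 28d post-MI. The adrenal list had r = 0.18 with Adipoq (permutation p = 0.393, adjusted p = 0.453) and rho = 0.21 (permutation p = 0.251, adjusted p = 0.289), and r = 0.18 without the kidneys farthest from the median of Adipoq. Skeletal muscle genes, of which Mb was at 0 in 21 kidneys, summed to between 0.349 and 3.97 CPM, with r = -0.16 and rho = 0.05 to Adipoq (permutation p = 0.545 and 0.832, adjusted p = 0.584 and 0.888) and r = -0.01 without those kidneys. Within groups their r was 0.42 in sham, -0.56 at 5d and 0.32 at 28d. Of the pancreas acinus list only Cela1 was tested, at 196 to 248 CPM in sham. The other genes of that list were nearly absent, with Cpa1 at 0 in all 22 kidneys, Prss2 and Cel in 21, Pnlip in 20 and Ctrb1 in 16. Which cells Cela1's level comes from was not tested. Of the mesothelium list only Upk3b was tested. Cela1 and Upk3b had log2 fold changes between -0.13 and 0.06 against sham.

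Lists of resident cells, some of which also express Fabp4 and Cavin1, had summed levels that overlapped between the groups. The 8 endothelium genes summed to 293 to 349 CPM in sham, 251 to 343 CPM at 5d and 285 to 344 CPM at 28d post-MI, with median log2 fold changes of -0.13 and -0.08 against sham. The endothelial genes with the highest mean CPM, Egfl7 and Emcn, had values between -0.15 and 0.06. Cdh5 had -0.25 (SE 0.10) at 5d and -0.29 (SE 0.11) at 28d, and Kdr -0.25 (SE 0.11) and -0.15 (SE 0.12). Of the 8 genes, 5 had a log2 fold change below 0 in each comparison with sham. At an unadjusted p under 0.05 by edgeR, 2 were lower at 5d (3.97% of all genes) and 1 at 28d (4.23%), and none was higher. The endothelium list's mean had r = 0.01 with Adipoq (permutation p = 0.983, adjusted p = 0.983) and rho = -0.04 (permutation p = 0.888, adjusted p = 0.888), and r = -0.26 without the kidneys farthest from the median. Within groups its r was 0.58 in sham, -0.19 at 5d and 0.01 at 28d, over 8, 8 and 6 kidneys. Whether r differed between the groups was not tested. The 6 fibroblast and preadipocyte genes summed to 194 to 232, 165 to 231 and 168 to 202 CPM, with group medians of 210, 202 and 180 CPM. Against sham, 4 of them at 5d and all 6 at 28d had a log2 fold change below 0, with medians of -0.13 and -0.24. At an unadjusted p under 0.05 by edgeR, none was lower at 5d (3.97% of all genes) and 2 were at 28d (4.23%), and none was higher. At 28d Dcn, a matrix proteoglycan, had a log2 fold change of -0.34 (SE 0.12, adjusted p = 0.416, edgeR) and Dpp4, a surface peptidase, -0.11 (SE 0.08). The mean of the 6 genes had r = 0.45 (permutation p = 0.0698, adjusted p = 0.0873) and rho = 0.33 (permutation p = 0.171, adjusted p = 0.214) with Adipoq, and r = 0.45 without the kidneys farthest from the median. This relation passed the threshold without sham replicate 7 (r = 0.55, permutation adjusted p = 0.0386) and without 28d post-MI replicate 6 (r = 0.58, permutation adjusted p = 0.0292), and within groups r was 0.10 in sham, 0.89 at 5d and -0.52 at 28d. The 5 macrophage genes summed to 82 to 120, 74.4 to 106 and 83.4 to 119 CPM, with median log2 fold changes of -0.33 and -0.05 against sham. All 5 had a log2 fold change below 0 at 5d and 3 at 28d. At an unadjusted p under 0.05 by edgeR, 2 were lower at 5d (3.97% of all genes) and none at 28d (4.23%), and none was higher. Of the 5, C1qa and C1qb, complement genes of macrophages, had -0.33 (SE 0.12) and -0.34 (SE 0.10) at 5d. Csf1r, the growth factor receptor of macrophages, had -0.08 (SE 0.12). The 5 kidney genes had medians of 0.05 and 0.10 against sham, with Slc34a1, the phosphate carrier of the proximal tubule, at -0.14 (SE 0.07) and 0.01 (SE 0.07) and Umod, uromodulin, at 0.21 (SE 0.08) and 0.13 (SE 0.09). None of these lists, nor the 5 kidney genes, held a gene called by edgeR, though without the filter on low counts Dcn was called at 28d post-MI (-0.34, adjusted p = 0.0464), and their part in the members' differences was not tested.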

How the data were processed

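MACE, a 3′ mRNA sequencing method with unique molecular identifiers, was run on kidney RNA by the authors, who used Cutadapt for trimming and HTSeq for counting genes after mapping to mouse. The methods name mm10 and the submitters' processing notes mm39 and Bowtie2, and the annotation and strand setting are not given in the sources used here. The deposited table gives the authors' whole-number counts of 56941 genes by Ensembl identifier, without coordinates. Of its 48 columns of values, 26 were not used, the 24 that the authors name tpm and 2 count columns that share a name, of which 1 belongs to a 5d and 1 to a 28d post-MI kidney. Symbols and positions come from GENCODE M21 (GRCm38), and no other annotated gene overlapped a member.

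Counts were normalized by TMM, filtered by filterByExpr (minimum of 10 counts, 12780 of 30116 genes with a count kept) and fitted by edgeR 4.0.16 (robust quasi-likelihood F test, two-sided, R 4.3.3) with the 3 groups and no covariate. Adjustment was by Benjamini-Hochberg over all tested genes, with a threshold of 0.05, and the code was tested on simulated data. Alternatives were DESeq2 1.42.0, limma 3.58.1 (voom), DESeq2's size factors, library totals only, no filter, only the 2 groups compared, the replicate number as a block, and each kidney left out in turn. Correlations of log2 CPM used Python 3.11.15 (scipy 1.17.1, numpy 2.4.6, pandas 2.3.3) and plots matplotlib 3.10.9. Pairs of kidneys of one group, 71 in all, had a chi-squared of 1.69 to 7.21 per degree of freedom, so none was counted as a repeat of another. The members, the 14 other lists and the tests were chosen with earlier results of these data known. Named genes are all members, in each list the genes called or, with none called, the 2 to 4 with the highest mean CPM, and the 5 most like the members. Ehd2, Cyp11b1, Cyp11b2, Mb, Cdh5, Kdr, Cpa1, Prss2, Cel, Pnlip, Ctrb1, Abhd5, Aqp7, G0s2 and C1qb were named after their values were seen. A marker of the kidney list and a gene among the 5 most like the members are not reported here, and the former was left out of the list's sums and counts.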

Additional observations from a re-analysis of the deposited data

Results flagged for a closer look

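In 75 groups of values (each of the 10 genes and the summed level of each list in each group of kidneys, with 6 or 8 kidneys), 6 held a kidney far from all others by Dixon's criterion at the 95% level, which chance gives in about 1 of 20 groups. Each of the 6 lay at the high end, and no explanation was weighed. Cfd was at 298 CPM in 28d post-MI replicate 7, the next kidney being at 159 CPM. Lep was at 4.89 CPM in 5d post-MI replicate 9, where it rested on 16 counts. The other subunit genes of protein kinase A summed to 331 CPM in 5d post-MI replicate 2, against a group median of 301 CPM. The other carbonic anhydrase genes summed to 814 CPM in 28d post-MI replicate 3, against a median of 733 CPM. Adrenal cortex genes summed to 85.2 CPM in 5d post-MI replicate 5, against a median of 2.95 CPM. Skeletal muscle genes summed to 3.97 CPM in sham replicate 1, against a median of 1.52 CPM.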

How the results depend on the processing

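Of 216 values of members' fold changes under settings other than leaving out a kidney, 208 kept their sign and their side of the threshold, as did 585 of 594 with 1 kidney left out. The number of called members, 0 in each comparison, was 1 without the filter on low counts at 5d and at 28d post-MI against sham (Cavin1), a setting in which 30116 genes were fitted. Called genes of the other lists, 0 in each comparison, were 4 by DESeq2 (Agpat2, Otop1, Kcnk3 and Pnpla2) and 4 without the filter (Otop1, Dcn, Cox7a1 and Slc2a4) at 28d post-MI against sham. Leaving out a kidney gave 0 to 4 there, 4 without sham replicate 8. For Retn the log2 fold change between the times, 0.00, was -0.0045 by DESeq2, -0.024 with library totals only, -0.0049 without the filter and -0.26 to 0.14 with a kidney left out. That of Cavin1, -0.02, was 0.0016 without the kidneys with adrenal genes and -0.07 to 0.041 with a kidney left out. The relation of Lep to Adipoq had r = 0.50 without the 2 kidneys farthest from the median and 0.46 to 0.55 with a kidney left out, and that of the endothelium list -0.26 and -0.24 to 0.14. With a kidney left out, r was -0.24 to 0.00 for skeletal muscle and 0.29 to 0.58 for the fibroblast list. The causes were not tested.

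Kidneys with the same replicate number did not deviate together (r from -0.127 to 0.0899 over 18 pairs), so the number pairs nothing. With the replicate block no member was called, the unadjusted counts were 3, 4 and 0, and between the times Car3 had 0.069 and Cavin1 0.018. The spread of the members kept its place under all settings tried. Depth limits Lep, with at most 16 counts a kidney, and the low values of Plin1 and Prkar2b.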
